A study of Homo sapiens with 13 samples.

Results

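The genes DDIT3, ATF3, ATF4, ATF5, TRIB3, CHAC1, PPP1R15A, EIF2AK3, EIF2AK4 and HERPUD1 of the integrated stress response were followed in CCRF-CEM cells, a line derived from a human T cell acute lymphoblastic leukemia. All array probes carrying 1 of these names were taken, which gave 14 probes of 10 genes among 34127 probes and 25940 gene names. ATF3 has 4 probes, CHAC1 has 2 and each other gene has 1. RNA was measured in parental cells (CEM PA) and in a derivative selected by stepwise increase of FK866, an inhibitor of the NAD-producing enzyme NAMPT, until it grew at 100 nM (CEM RES). Each line received DMSO (mock) or 5 nM FK866 for 48 h, on 3 mock and 2 FK866 arrays of CEM PA and on 4 mock and 4 FK866 arrays of CEM RES. The selected cells had been cultured with the drug, and the mock cells of CEM RES therefore had earlier drug exposure, and the line is a single selected population. The labels call the arrays of a group biological replicates.

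The integrated stress response is the route by which a cell slows protein synthesis when amino acids, heme or protein folding fail. The kinases EIF2AK3 (PERK, the sensor of unfolded protein in the endoplasmic reticulum) and EIF2AK4 (GCN2, the sensor of uncharged tRNA) phosphorylate the initiation factor eIF2, general translation falls, and the mRNA of the transcription factor ATF4 is translated more. ATF4 in turn induces DDIT3 (the factor CHOP), ATF3, ATF5, TRIB3 and CHAC1, and PPP1R15A (GADD34) brings a phosphatase to eIF2 and closes the loop. Because ATF4 and ATF5 are controlled largely at translation, their mRNA level and their protein activity can differ, and the arrays measure mRNA only.

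Of the 34127 probes, 22754 were kept, each clearly brighter than background on all arrays of 1 or more groups, and all 14 stress response probes did so on all 13 arrays. Values are quantile normalized log2 signals, a difference of 1 is a doubling, and levels of different probes are not comparable. Between 26457 and 33239 of 43118 spots per array were well above background, and 0 were saturated. The parental arrays were scanned in 2 sessions and the resistant arrays in a session of their own, so line and scan session cannot be told apart. All 14 T-lineage markers checked were well above background on all arrays. Of 11 markers of other cell types, 5 passed the filter, among them CD79B, which was lower in mock CEM RES (log2 fold change -1.17, adjusted p = 0.000268 in limma). Its part in the differences between the lines below was not tested.

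The first comparison asked which of these genes answered to FK866 in the drug-sensitive parental cells. None of the 14 probes passed a Benjamini-Hochberg adjusted p of 0.05 over all kept probes in limma, against 1.53% of all probes. By the double threshold of the study's methods, a log2 fold change over 0.75 in size with an unadjusted p under 0.05, 2 of 14 probes passed, both higher, against 6.7% of all probes. These were PPP1R15A and DDIT3. The median log2 fold change of the 14 probes was -0.03, and 7 of them were positive. In 6 of 14 probes the 2 FK866 arrays lay outside the range of the 3 mock arrays, against 34.8% of all probes.

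PPP1R15A, the stress-inducible subunit that directs protein phosphatase 1 to eIF2, is measured by a probe at chr19:49378127-49378901 (hg19, plus strand), which crosses an intron. Its 60 bases lie in the coding sequence and are shown because they span the phosphatase docking motif of the protein, whose codons for lysine, valine, arginine and phenylalanine are in capitals.
PPP1R15A A_23_P90172: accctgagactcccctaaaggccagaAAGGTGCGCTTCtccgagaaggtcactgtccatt
The signal was 9.79, 9.54 and 9.44 on the CEM PA mock arrays and 10.97 and 10.69 on the CEM PA FK866 arrays. Both drug-exposed arrays were above all mock arrays. The log2 fold change was 1.24 (standard error 0.31, 95% confidence interval 0.56 to 1.92), a 2.36-fold difference, with an adjusted p of 0.0748 in limma. The difference was 1.18 within the first scan session and 1.20 within the second. With the replicate number as a block it was 1.16 with an adjusted p of 0.0412, which is past the threshold. Without CEM RES FK866 replicate 1, an array of neither group compared, the adjusted p was 0.0304. That fit repeated the normalization and the filter on the remaining arrays. With the slide as a block the difference was 1.18, which rests on the only slide with both a mock and an FK866 array of CEM PA. With single arrays left out the difference was 1.09 to 1.38. The threshold was passed in 4 alternatives and not in 22.

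DDIT3 encodes CHOP, the transcription factor tied to cell death under unresolved stress (probe at chr12:57911200-57911526 in hg19, minus strand, across an intron). The signal was 9.01, 9.20 and 8.37 in mock CEM PA and 9.63 and 9.65 with FK866. The drug-exposed arrays lay above the mock arrays, of which replicate 3 was far below the other two. The log2 fold change was 0.78 (95% confidence interval 0.13 to 1.43), with an adjusted p of 0.249 in limma. Without mock replicate 3 the difference was 0.53, under the fold limit. With the replicate number as a block, which rests on the same CEM PA arrays, it was 0.54.

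The remaining members of the pathway gave no call in CEM PA. ATF4, the central factor, was at 17.39, 17.27 and 17.08 in mock cells and at 17.39 and 17.22 with FK866. Its groups overlapped, and the log2 fold change of 0.06 had a 95% confidence interval from -0.33 to 0.45. ATF5, a related factor also controlled by eIF2 phosphorylation, was at 9.06, 8.82 and 7.80 in mock cells and at 9.30 and 9.21 with FK866, a difference of 0.69 with an adjusted p of 0.504. As for DDIT3, mock replicate 3 was the lowest of the 5 parental arrays. TRIB3, a pseudokinase that feeds back on ATF4, differed by 0.19 and HERPUD1, a component of endoplasmic reticulum-associated degradation, by 0.00. The 2 CHAC1 probes, for an enzyme that degrades glutathione, differed by -0.07 and -0.14, and the 4 ATF3 probes by -0.08, -0.10, -0.55 and -0.25. EIF2AK3 differed by 0.12 and EIF2AK4 by -0.19.

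**Figure D1:**
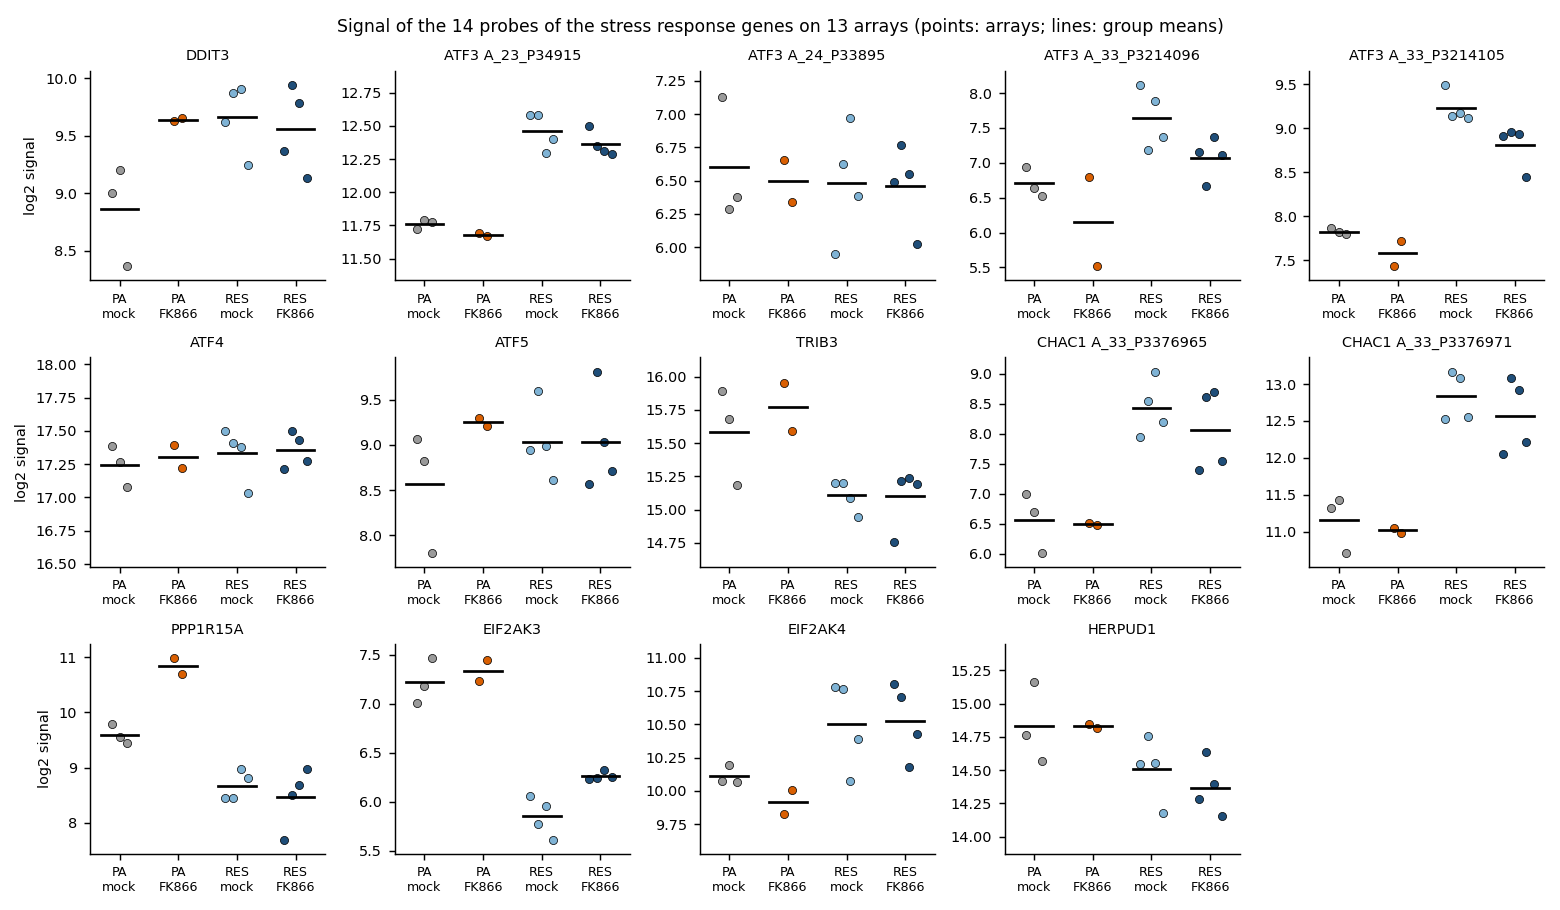
Log2 signal of each of the 14 probes (y axis, its own range in each panel) on the 13 arrays by group (x axis), with 1 point per array in replicate order and a line at the group mean. PPP1R15A is high on both CEM PA FK866 arrays (10.97 and 10.69), whereas on both CHAC1 probes and the ATF3 probes A_23_P34915 and A_33_P3214105 every CEM RES array, with or without drug, lies above every CEM PA array.

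The same dose was then compared with mock in the resistant cells. None of the 14 probes passed the adjusted p, as was the case for 0% of all probes (1171 probes, or 5.15%, had an unadjusted p under 0.05), and none passed the double threshold, against 1.3% of all probes. An unadjusted p under 0.05 was reached by 2 of the 14, and the same 2 probes were the ones whose groups did not overlap, against 2.91% of all probes. EIF2AK3 was at 6.06, 5.77, 5.96 and 5.61 in mock CEM RES and at 6.23, 6.24, 6.33 and 6.25 with FK866. All drug-exposed arrays were above the mock arrays, by 0.41 on the log2 scale (adjusted p = 0.938 in limma). That difference was 0.11 to 0.51 over the alternatives that used all arrays. The ATF3 probe A_33_P3214105 was at 9.50, 9.14, 9.17 and 9.12 in mock cells and at 8.91, 8.96, 8.94 and 8.45 with FK866, a difference of -0.42 (adjusted p = 0.938). Here all drug-exposed arrays were below the mock arrays.

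For PPP1R15A and DDIT3 the arrays of mock and drug-exposed CEM RES overlapped. PPP1R15A was at 8.44, 8.45, 8.97 and 8.82 in mock cells and at 7.70, 8.51, 8.69 and 8.97 with FK866, with a log2 fold change of -0.20 (95% confidence interval -0.73 to 0.33). DDIT3 was at 9.62, 9.87, 9.91 and 9.24 in mock cells and at 9.36, 9.94, 9.79 and 9.13 with FK866, with a log2 fold change of -0.10 (95% confidence interval -0.61 to 0.40). PPP1R15A differed by -0.70 within the first slide of CEM RES and by 0.29 within the second. ATF4 differed by 0.02 (95% confidence interval -0.28 to 0.33).

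The difference between the FK866 responses of both lines was tested directly, as the response of CEM RES minus that of CEM PA. None of the 14 probes passed the adjusted p, against 0.413% of all probes, and 2 passed the double threshold, against 8.03% of all probes. The PPP1R15A responses differed by -1.44 (95% confidence interval -2.31 to -0.58, adjusted p = 0.161 in limma). The DDIT3 responses differed by -0.88 (95% confidence interval -1.71 to -0.06, adjusted p = 0.375). With array quality weights the PPP1R15A difference was -1.56 with an adjusted p of 0.0410.

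**Figure D2:**
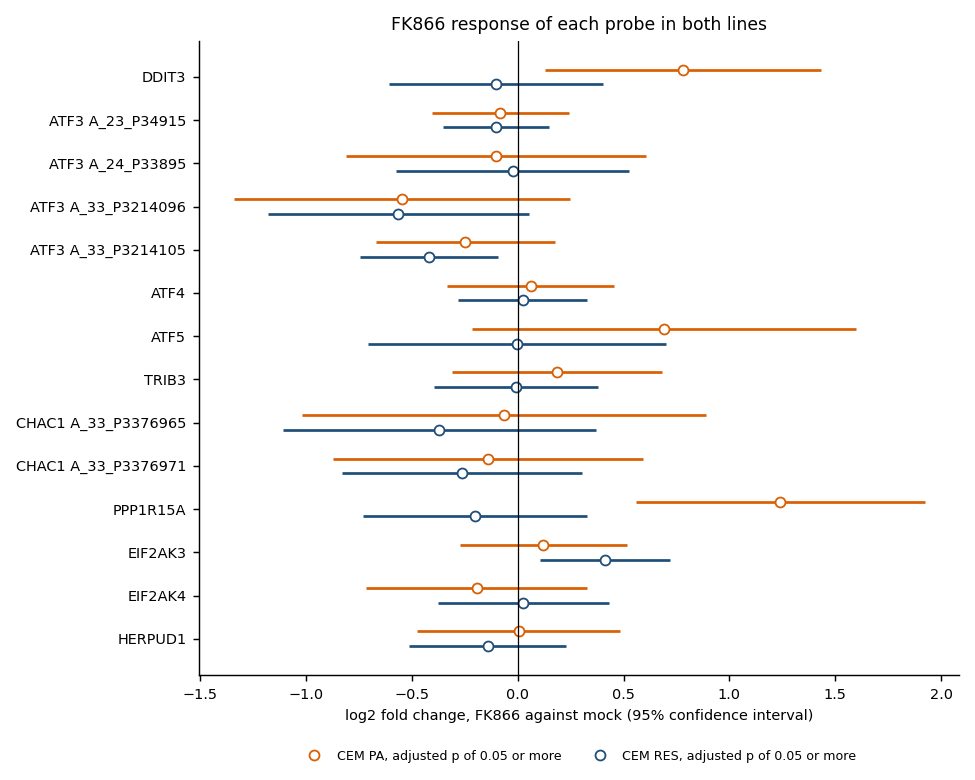
Log2 fold change of FK866 against mock (x axis) for each of the 14 probes (y axis) in CEM PA (orange) and CEM RES (blue), with the limma estimate as a point and its 95% confidence interval as a bar, from 3 mock and 2 FK866 arrays of CEM PA and 4 of each in CEM RES. All points are open because no adjusted p was under 0.05, and PPP1R15A in CEM PA (1.24) is farthest from 0.

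The lines were next compared without drug. Relative to mock CEM PA, 8 of 14 probes passed the adjusted p in mock CEM RES, 6 higher and 2 lower, or 5 of the 10 genes. This is to be read against 47.6% of all probes that passed, 24.9% higher and 22.7% lower. The genes higher in CEM RES were DDIT3, ATF3 and CHAC1, and the genes lower were PPP1R15A and EIF2AK3.

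CHAC1 had the largest estimated difference of the 10 genes. Its probe A_33_P3376965 lies in the coding sequence (chr15:41247814-41247873 in hg19, plus strand), and A_33_P3376971 farther downstream in the same transcript. The coding probe is shown with the 2 ATF3 probes of the coding sequence because the ATF3 probes gave different answers, at chr1:212788502-212788561 for A_33_P3214105 and chr1:212792837-212792896 for A_24_P33895 (plus strand), with no base marked.
CHAC1 A_33_P3376965: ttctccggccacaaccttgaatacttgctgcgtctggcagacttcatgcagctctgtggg
ATF3 A_33_P3214105: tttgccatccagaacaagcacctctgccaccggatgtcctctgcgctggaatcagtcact
ATF3 A_24_P33895: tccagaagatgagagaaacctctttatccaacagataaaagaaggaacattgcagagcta
The CHAC1 coding probe was at 6.99, 6.69 and 6.01 in mock CEM PA and at 7.95, 8.55, 9.04 and 8.19 in mock CEM RES. The downstream probe was at 11.32, 11.43 and 10.71 in CEM PA and at 12.52, 13.17, 13.08 and 12.56 in CEM RES. On both probes every resistant array was above every parental array. The log2 fold changes were 1.87 (standard error 0.37, adjusted p = 0.00139 in limma) and 1.68 (standard error 0.28, adjusted p = 0.000495), or 3.65-fold and 3.20-fold. The coding probe was dim in mock CEM PA, with background-corrected intensities of 49 to 113.

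ATF3 encodes a stress-induced repressor and activator that partners with CHOP. The probe A_33_P3214105 was at 7.87, 7.82 and 7.80 in mock CEM PA and at 9.50, 9.14, 9.17 and 9.12 in mock CEM RES, 1.40 higher (adjusted p = 3.89e-05 in limma). The probe A_23_P34915, the farthest downstream of the 4 (chr1:212793856-212793915), was at 11.72, 11.79 and 11.78 in CEM PA and between 12.29 and 12.58 in CEM RES, 0.70 higher (adjusted p = 0.000733). A_33_P3214096 was 0.93 higher (adjusted p = 0.0244), a call lost without mock CEM PA replicate 2 or 3 or mock CEM RES replicate 1 or 3 (adjusted p from 0.0589 to 0.0785). The probe A_24_P33895 differed by -0.12 (95% confidence interval -0.71 to 0.48), with overlapping groups. Of the 4 ATF3 probes, 3 were thus higher in CEM RES and 1 gave no call. That probe is dim, with background-corrected intensities of 65 to 109 in mock CEM PA and 36 to 155 in mock CEM RES. A_33_P3214096 was likewise dim in mock CEM PA (74 to 110).

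DDIT3 was 0.80 higher in mock CEM RES (standard error 0.25, adjusted p = 0.0196 in limma), with the lowest resistant array (9.24) just above the highest parental array (9.20). The call was lost without mock CEM PA replicate 3 (0.55, adjusted p = 0.0987), without mock CEM RES replicate 3 (0.72, adjusted p = 0.0510) and with array quality weights (0.46, adjusted p = 0.118).

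Lower in mock CEM RES was EIF2AK3, the unfolded protein sensor, with 7.01, 7.18 and 7.46 in CEM PA against 5.61 to 6.06 in CEM RES. The difference of -1.36 (standard error 0.15, adjusted p = 3.20e-05 in limma) left a wide gap between the arrays of the lines. It was -1.48 to -0.71 over the alternatives that used all arrays, and passed in each. The EIF2AK3 probe is dim, with background-corrected intensities of 39 to 80 in mock CEM RES and 98 to 159 in mock CEM PA. For PPP1R15A the difference was -0.92 (adjusted p = 0.0123, standard error 0.26). Its highest resistant array (8.97) was below its lowest parental array (9.44), and without mock CEM PA replicate 1 the adjusted p was 0.0524. TRIB3 differed by -0.48 (adjusted p = 0.0563), EIF2AK4 by 0.39 (adjusted p = 0.127), HERPUD1 by -0.32 (adjusted p = 0.170), ATF5 by 0.47 (adjusted p = 0.285) and ATF4 by 0.09 (95% confidence interval -0.24 to 0.42). The ATF4 difference ran from -0.05 to 0.37 over the alternatives that used all arrays and passed in none of them. TRIB3 passed in 6 of 26 alternatives (adjusted p down to 0.00932, with array quality weights), HERPUD1 in 1 (-0.64, adjusted p = 0.00880, with array quality weights) and EIF2AK4 in 1 (0.54, adjusted p = 0.0385, without mock CEM RES replicate 3).

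Whether mock-treated CEM RES sat at the level that CEM PA reached under FK866 was tested as mock CEM RES against FK866-exposed CEM PA. The answer differed by gene. Of the 14 probes, 8 passed the adjusted p, 5 higher and 3 lower, against 39.9% of all probes, 20.9% higher and 19% lower. Part of every such difference is the difference between the lines, since each group comes from another line and scan session.

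DDIT3 was at 9.66 ± 0.31 (SD, n = 4) in mock CEM RES and at 9.64 ± 0.015 (SD, n = 2) in drug-exposed CEM PA. The difference was 0.02 with a 95% confidence interval from -0.60 to 0.64, and it ranged from -0.14 to 0.14 over the alternatives that used all arrays and from -0.06 to 0.16 with single arrays left out. If mock CEM RES sat at the mock parental level, the difference would be the parental FK866 response with the opposite sign. The lower end of the interval falls short of that for the estimated response of 0.78. The 95% confidence interval of that response (0.13 to 1.43) includes sizes that the lower end reaches. Both values also use the same 2 FK866 arrays of CEM PA, so this cannot decide between the parental levels. The lower end also reaches the response of 0.53 without mock CEM PA replicate 3 and of 0.54 with the replicate number as a block. These 2 rest on the same CEM PA arrays, since mock replicate 3 has no FK866 array of equal number. ATF4 (0.03, 95% confidence interval -0.35 to 0.40), ATF5 (-0.22, 95% confidence interval -1.08 to 0.65), the ATF3 probe A_24_P33895 (-0.01, 95% confidence interval -0.69 to 0.66) and HERPUD1 (-0.33, 95% confidence interval -0.78 to 0.13) also passed no test. EIF2AK4 was 0.59 higher in mock CEM RES (adjusted p = 0.0576), and it passed in 7 of 26 alternatives, among them the replicate number as a block (adjusted p = 0.0279) and the fit without mock CEM RES replicate 3 (0.73, adjusted p = 0.0193).

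PPP1R15A stood on the opposite side. It was at 8.67 ± 0.26 (SD, n = 4) in mock CEM RES and at 10.83 ± 0.20 (SD, n = 2) in drug-exposed CEM PA, a difference of -2.16 (95% confidence interval -2.81 to -1.51, adjusted p = 0.000203 in limma), or 4.47-fold. In mock CEM RES, the mean of DDIT3 was near the drug-exposed parental mean, and PPP1R15A was below the mock parental level. The lowest mock CEM RES array of DDIT3 (9.24) was close to the highest mock CEM PA array (9.20). EIF2AK3 was likewise below both parental groups, with a difference of -1.49 from drug-exposed CEM PA (adjusted p = 7.09e-05). That difference was -1.61 to -0.78 over the alternatives that used all arrays. TRIB3 differed by -0.66 (adjusted p = 0.0287), a call lost with the replicate number as a block (adjusted p = 0.0638), with scaling to the 75th percentile (adjusted p = 0.0547), without CEM PA FK866 replicate 1 (adjusted p = 0.265) and without mock CEM RES replicate 4 (adjusted p = 0.0637).

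CHAC1 and 3 of 4 ATF3 probes lay above both parental groups. Against drug-exposed CEM PA the CHAC1 probes were 1.93 (adjusted p = 0.00329 in limma) and 1.82 (adjusted p = 0.000939) higher. The ATF3 probes A_33_P3214105, A_33_P3214096 and A_23_P34915 were 1.65, 1.48 and 0.78 higher (adjusted p = 5.43e-05, 0.00530 and 0.00113). The call of A_33_P3214096 was lost without CEM PA FK866 replicate 2 (0.84, adjusted p = 0.107). In CEM PA these 5 probes had log2 fold changes between -0.55 and -0.07 with FK866.

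**Figure D3:**
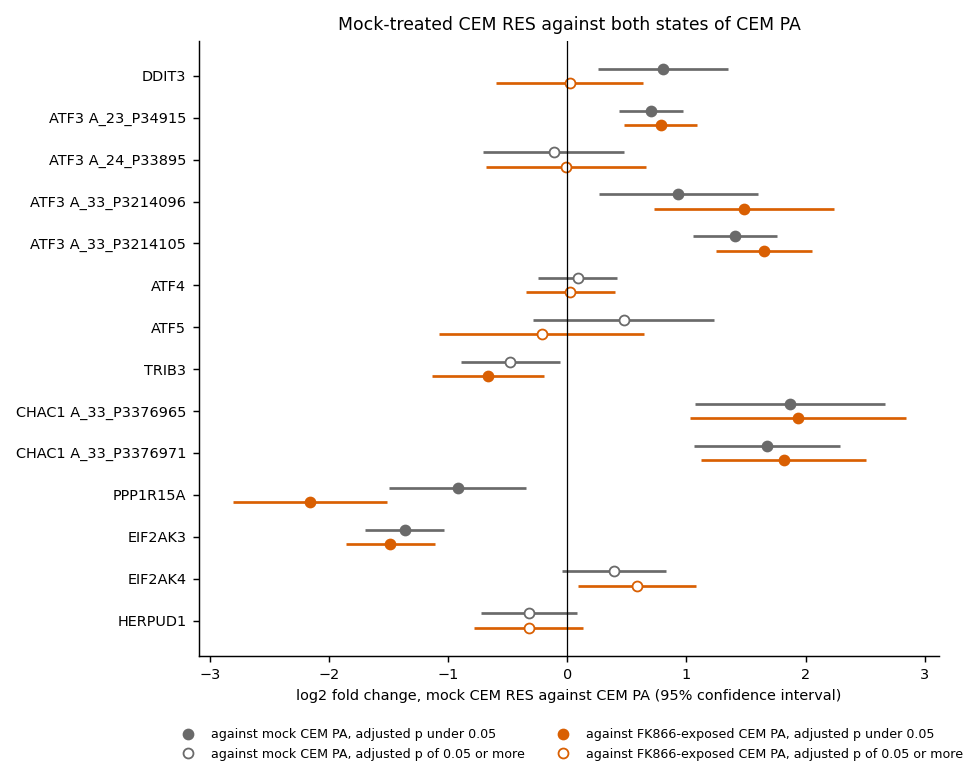
Log2 fold change in mock CEM RES (x axis) relative to mock CEM PA (gray) and against FK866-exposed CEM PA (orange) for the 14 probes (y axis), as limma estimates with 95% confidence intervals, filled where the adjusted p was under 0.05. The orange interval of DDIT3 is centered near 0 (0.02), that of PPP1R15A lies far below it (-2.16), and both CHAC1 intervals lie above it.

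Other genes of the pathway were read by 3 lists, with the brightest kept probe standing for a gene. In CEM PA under FK866, 1 of 18 measured genes of the eIF2 kinases and eIF2 control passed the adjusted p, 0 of 50 further ATF4 and CHOP target genes, and 0 of 32 genes of the IRE1-XBP1 and ATF6 arms and chaperones, against 100 of all 17597 genes higher and 73 lower. The medians of the lists were 0.04, 0.13 and 0.07, against -0.02 for all genes. The gene that passed was DNAJC3 (p58IPK, an inhibitor of eIF2 kinases). It was at 9.61, 9.77 and 9.87 in mock CEM PA and at 11.00 and 10.72 with FK866, 1.11 higher (adjusted p = 0.00722 in limma). In CEM RES it was between 9.85 and 10.15 in mock cells and between 9.59 and 9.76 with FK866, a difference of -0.27 (adjusted p = 0.938), and the responses of both lines differed by -1.37 (adjusted p = 0.0173). With a fit of only the groups compared the difference in CEM PA did not pass (adjusted p = 0.117 in limma). With the slide as a block it was 1.39, which rests on 1 mock and 1 FK866 array of CEM PA. With single arrays left out it was 0.96 to 1.24, and the difference between the lines was -1.51 to -1.22. The call in CEM PA was lost in 3 alternatives and that of the difference between the lines in 2. The second DNAJC3 probe, near background, differed by 1.41 in CEM PA (adjusted p = 0.365).

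Of the ATF4 and CHOP target genes, the smallest p in CEM PA belonged to VLDLR (-0.72, adjusted p = 0.107), MTHFD2 (0.59, adjusted p = 0.123) and PMAIP1 (0.55, adjusted p = 0.297). Of the IRE1-XBP1 and ATF6 list they belonged to EDEM3 (-0.66, adjusted p = 0.0641), MBTPS2 (0.49, adjusted p = 0.289) and XBP1 (-0.53, adjusted p = 0.366). Of these 6 genes, EDEM3 passed in 4 alternatives (adjusted p down to 0.0106), MTHFD2 and XBP1 in 2 each and MBTPS2 in 1, each with array quality weights among them. None of the genes of the lists passed in CEM RES under FK866, against 0 higher and 0 lower of all 17597 genes.

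Between the mock-treated lines the target genes split. Of 50, 18 were higher in CEM RES and 10 lower (36% and 20%), against 24.6% and 22.8% of all genes, with a median of 0.22 against 0.04. Higher were IARS, the isoleucyl-tRNA synthetase (1.44, adjusted p = 0.000132 in limma), the pro-apoptotic PMAIP1 (1.32), the translation repressor EIF4EBP1 (1.25, a call lost in 16 alternatives) and the glycine transporter SLC6A9 (1.12, a call lost without mock CEM PA replicate 3 or mock CEM RES replicate 2). Lower were the cytokine GDF15 (-1.45), the pro-apoptotic BBC3 (-1.37) and BCL2L11 (-1.26), and CTH (-1.25), the enzyme that makes cysteine from cystathionine. Of the eIF2 list 5 of 18 were higher and 2 lower. EIF2AK2 (PKR, the kinase that senses double-stranded RNA) was 2.34 higher (adjusted p = 1.42e-06), with 9.94 to 10.39 in mock CEM PA and 12.31 to 12.80 in mock CEM RES, and its second probe was 1.78 higher. With FK866 in CEM PA this second EIF2AK2 probe was 0.92 higher (adjusted p = 0.0721 in limma), past the double threshold, and the brighter probe 0.42 higher (adjusted p = 0.354). The responses of the lines differed by -1.16 on the second probe (adjusted p = 0.126). Between the mock-treated lines the eIF2B subunits EIF2B4 (0.97), EIF2B2 (0.84) and EIF2B3 (0.80) were higher, and PPP1CB (-1.89), a catalytic subunit of protein phosphatase 1, was lower. Of the IRE1-XBP1 and ATF6 list 7 of 32 were higher and 9 lower. Higher were MBTPS2 (1.12), the protease that releases ATF6, the degradation factors SEL1L (0.99) and DERL3 (0.93), and the disulfide isomerase PDIA3 (0.94). Lower were MANF (-1.43), the chaperone HSP90B1 (-1.03), the disulfide isomerase PDIA6 (-1.01) and EDEM1 (-0.92, a call lost in 4 alternatives).

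**Figure D4:**
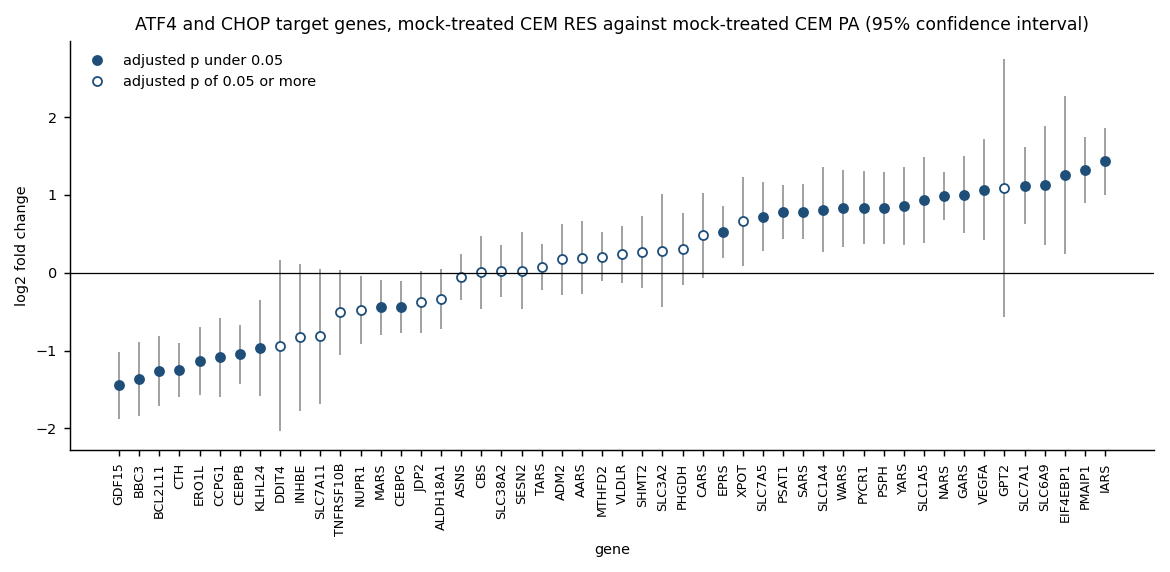
Log2 fold change in mock CEM RES over mock CEM PA (y axis, limma estimate with 95% confidence interval) for the 50 measured ATF4 and CHOP target genes other than the 10 members (x axis, in order), filled where the adjusted p was under 0.05. The list spreads to both sides of 0, with 18 genes higher and 10 lower.

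Against drug-exposed CEM PA, 15 of the 50 target genes were higher in mock CEM RES and 9 lower (30% and 18%), against 21.2% and 18.2% of all genes, with a median of 0.18 against 0.07. Higher were the amino acid transporters SLC1A4 (1.20) and SLC1A5 (1.06, a call lost without either CEM PA FK866 array), IARS (1.17) and the serine synthesis enzyme PSPH (1.08). Lower were GDF15 (-1.63), BBC3 (-1.60), the autophagy receptor CCPG1 (-1.47) and CTH (-1.35). With either CEM PA FK866 array left out, fewer target genes passed in each direction. Whether this differs from the loss over all genes in those fits was not tested.

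The promoters of the members, 250 bases before to 50 after the start (RefSeq, GRCh38.p14), were searched on both strands for response elements of this pathway. All 10 genes were found, and a gene counted when any of its promoters held a match. The C/EBP-ATF response element TGATGNAA was present in the promoters of 3 of the 10 genes, against 4.46% of 27305 genes and 3.62% of 35116 promoters, the cyclic AMP response element TGACGTCA in 1 of 10, against 2.25% of genes and 1.85% of promoters, and the ER stress response element II (its letters are the capitals shown, with the sixth base free) in 1 of 10, against 0.07% of genes and 0.054% of promoters. The longer ER stress response element (ERSE) was in none of the 10, against 0.092% of genes and 0.077% of promoters. The matches are shown in capitals because CHAC1, ATF3 and HERPUD1 share the C/EBP-ATF element, while between the mock-treated lines both probes of CHAC1 and 3 of 4 of ATF3 passed the test and HERPUD1 did not. The stretches are CHAC1 at chr15:40953237-40953294, ATF3 at chr1:212565191-212565248, HERPUD1 at chr16:56931941-56931998 and chr16:56932000-56932060, and PPP1R15A at chr19:48872338-48872395, all on the plus strand.
CHAC1, C/EBP-ATF element on the opposite strand: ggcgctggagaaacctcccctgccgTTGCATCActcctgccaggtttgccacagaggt
ATF3, C/EBP-ATF element: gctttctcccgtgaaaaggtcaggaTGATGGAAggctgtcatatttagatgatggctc
HERPUD1, C/EBP-ATF element on the opposite strand: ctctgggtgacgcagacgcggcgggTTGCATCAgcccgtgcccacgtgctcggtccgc
HERPUD1, ER stress response element II: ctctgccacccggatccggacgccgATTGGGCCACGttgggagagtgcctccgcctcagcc
PPP1R15A, cyclic AMP response element: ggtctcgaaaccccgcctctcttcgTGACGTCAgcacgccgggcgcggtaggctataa
No match was found for DDIT3, ATF4, ATF5, TRIB3, EIF2AK3 and EIF2AK4, which says only that these letters are not in this window. A match is a description of the sequence and no binding site. The ATF3 match lies in the promoter at chr1:212565157-212565456, and whether the measured ATF3 transcripts start there was not tested.

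Over the 13 arrays, after the mean of each line was subtracted, the probes most like DDIT3 were those of POLR1C (r = 0.985), NXT1 (r = 0.980), BYSL (r = 0.973), KIAA0020 (r = 0.966) and DDX56 (r = 0.963), among 22721 probes without a missing value. Among the members ATF5 was nearest (r = 0.865), then HERPUD1 (r = 0.696), ATF4 (r = 0.653), and then the CHAC1 probe A_33_P3376971 (r = 0.614), TRIB3 (r = 0.610) and the CHAC1 probe A_33_P3376965 (r = 0.608). PPP1R15A reached 0.525, and EIF2AK3 (r = -0.014), EIF2AK4 (r = -0.158) and 3 of 4 ATF3 probes (r from -0.168 to 0.085) did not follow DDIT3. Among all 22721 probes, the r of ATF5 was at percentile 99.2, of HERPUD1 at 95.2 and of ATF4 at 93.6. CHAC1 and TRIB3 were at 91.7 to 92 and PPP1R15A at 87.5, so many probes outside the pathway were as near to DDIT3. These values are descriptions over arrays that share slides and scan sessions.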

How the data were processed

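Each of 13 RNA samples was hybridized to 1 one-colour Agilent array. Deposited were the spot intensities of Feature Extraction, corrected for background but not normalized between arrays, and the authors' log2 table after quantile normalization. The authors removed low signals and used limma. Here log2 was taken of the processed intensity, outlier spots were set to missing, the 13 arrays were quantile normalized and spots of a probe averaged. In CHAC1 and ATF3, and in every other gene, each probe was tested separately. The 4 groups were fitted in 1 limma 3.58.1 model in R 4.3.3, and all p values are two-sided from its moderated test, adjusted over 22754 kept probes. Arrays give no counts, so their number limits the precision. Probe coordinates are those of the array design (hg19). The fit was tested on simulated data with independent arrays and changes put into CEM RES only. Variation shared between arrays was not simulated. Files and figures were handled with Python 3.11.15, numpy 2.4.6, pandas 2.3.3 and matplotlib 3.10.9.

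Deviations from the group mean correlated across genes at 0.440 and 0.343 for mock and FK866 arrays of equal number in CEM PA and at 0.217 to 0.484 in CEM RES, so a fit with the replicate number as a block was added. In CEM PA, arrays of equal number also shared a scan session. Mock replicate 3, scanned in the session of FK866 replicate 2, correlated with that array at 0.235. With 2 FK866 arrays in CEM PA the parental values are not independent of each other. The members and lists were chosen with earlier results of these data known. Named are all member probes, up to 4 genes of a list in each direction past an adjusted p of 0.05 (not all are printed), or the 3 of smallest p in CEM PA, and the 5 probes most like DDIT3. CD79B and the second probes of DNAJC3 and EIF2AK2 were chosen after their values were seen. One other marker is not reported here. Alternatives changed the scaling (75th percentile, or the deposited log2 table), the background (normexp, offset 50), the filter on dim probes, the outlier spots, the probes (1 probe a gene), the groups fitted (only those compared), the block (slide, scan session, replicate number), the weights of arrays, the variance trend, or left out each array. Running them for list genes was chosen after seeing the data. Where this left a group with 1 array, it was assumed to vary like the others.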

Additional observations from a re-analysis of the deposited data

Results flagged for a closer look

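In the resistant groups of 4 arrays, 3 signals stood apart from the rest of their group by the gap between the outermost array and its neighbour. Of 32 such groups tested, chance alone flags about 1 in 20. The ATF3 probe A_33_P3214105 was at 9.50 in mock CEM RES replicate 1 (next 9.17) and at 8.45 in FK866-exposed CEM RES replicate 4 (next 8.91), and TRIB3 was at 14.76 in FK866-exposed CEM RES replicate 1 (next 15.19). The DNAJC3 response to FK866 differed between the lines by -1.37 on the log2 scale in the test of the difference (adjusted p = 0.0173 in limma). With the slide as a block that difference was -1.66, where the CEM PA part rests on 1 mock and 1 FK866 array.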

How the results depend on the processing

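Over 13 alternatives and each array left out, no member probe that passed a test changed direction. For FK866 against mock in CEM PA, the probes past the adjusted p were 0, and 1 (PPP1R15A) with normexp, with the replicate block or with array weights, and 0 to 1 with single arrays left out. The probes past the double threshold were 2, then 1 with normexp, the replicate block or array weights, and 1 to 2 with single arrays left out. In CEM RES both counts were 0 throughout. For the difference between the responses, the adjusted p was passed by 0 probes, and by 1 with array weights. The double threshold was passed by 2, then by 1 with the scan session or replicate block or array weights, and by 1 to 2 with single arrays left out. The slide block is left out of the counts for FK866 responses that use CEM PA, where it rests on 1 mock and 1 FK866 array. Both comparisons of mock CEM RES gave 8 probes past the adjusted p, 5 with 1 probe a gene, where fewer probes were tested, and 7 to 9 under the other alternatives and with single arrays left out. They gave 7 past the double threshold, 4 with 1 probe a gene and 5 to 7 under the other alternatives. With single arrays left out this was 6 to 7 against mock CEM PA and 6 to 8 against drug-exposed CEM PA. The causes of changed calls, including those named for PPP1R15A, EIF2AK4 and TRIB3, were not tested. With 75th percentile scaling the median over all probes went from 0.04 to 0.17 for mock CEM RES against mock CEM PA and from 0.05 to 0.22 against drug-exposed CEM PA. The 2 FK866 arrays of CEM PA limit the precision of each comparison that uses them.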
